A study of Mus musculus with 4 samples.

Results

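Interferon-stimulated and antigen presentation genes were examined in NMuMG, a mouse mammary epithelial cell line in which TGFβ sets off the epithelial-to-mesenchymal transition. The 46 genes were taken by symbol from a count table of 21971 genes, and each of the 46 had a row in it. The 4 libraries, 1 per group, came from Vp16-TRF1ΔN cells after 24 h with TGFβ at 5 ng/ml, Vp16-TRF1ΔN cells at 0 h, TRF1ΔN cells after 24 h with the same TGFβ, and TRF1ΔN cells at 0 h. By their labels all of the cells overexpress a mutated human TRF1, a telomere-binding protein, so the control line carries a transgene too. In the Vp16-TRF1ΔN line this protein is joined to the Vp16 activation domain, which was used to raise TERRA-like telomeric RNA. The labels do not say whether a line is a clone, and they name no 24 h library without TGFβ, so time in culture and TGFβ cannot be told apart.

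Type I interferons bind the receptor chains IFNAR1 and IFNAR2, whose kinases JAK1 and TYK2 phosphorylate STAT proteins, STAT2 among them. With IRF9 these form a complex that binds the interferon-stimulated response element (ISRE) and switches on antiviral genes such as those of the Mx, Oas and Ifit families. Interferon gamma acts through GAS elements and raises IRF1, guanylate-binding proteins and the genes of MHC class I antigen presentation. Epithelial cells can run both programmes, and many of these genes also have a basal level without added interferon.

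The ISRE is shown first, because members with the same letters before their start behaved differently. RefSeq promoters (GRCm38.p6) were matched for 39 of the 46 genes, with 48 annotated starts. The 7 genes without a matched promoter, Mx1, Oas2, Dhx58, Parp9, Parp14, Rtp4 and Usp18, were not searched. For the others, the 250 bases before each start were searched on both strands for the ISRE core. It was taken as GAAA, any 2 bases and GAAA. The core was present for 11 of the 39 members (28.2%), against 3.46% of the 27025 genes with a promoter of the same length. These 11 genes were B2m and Gbp3, which rose with TGFβ, Bst2 and Oas3, which fell, Gbp2, Ifit1, Oas1a and Stat2, which did not pass the test, and Ifit3, Isg15 and Rsad2, which had too few counts to be tested. Below are 2 promoters of genes that rose (B2m, Gbp3), 2 of genes that fell (Bst2, Oas3) and 2 of genes with at most 23 counts in any library (Isg15, Ifit1). They run 5′ to 3′ on the gene's strand, and capitals mark the core or its reverse complement.
B2m, chr2:122147437-122147686, strand +: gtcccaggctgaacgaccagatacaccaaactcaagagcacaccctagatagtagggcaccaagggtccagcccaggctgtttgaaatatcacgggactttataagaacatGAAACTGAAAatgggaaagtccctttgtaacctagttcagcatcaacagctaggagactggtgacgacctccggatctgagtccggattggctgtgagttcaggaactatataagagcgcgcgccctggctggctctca
Gbp3, chr3:142559794-142560043, strand +: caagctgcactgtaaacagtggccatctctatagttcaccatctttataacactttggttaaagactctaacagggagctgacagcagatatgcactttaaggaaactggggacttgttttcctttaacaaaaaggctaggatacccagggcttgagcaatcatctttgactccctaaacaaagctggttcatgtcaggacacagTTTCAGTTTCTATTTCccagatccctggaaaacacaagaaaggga
Bst2, chr8:71537473-71537722, strand minus: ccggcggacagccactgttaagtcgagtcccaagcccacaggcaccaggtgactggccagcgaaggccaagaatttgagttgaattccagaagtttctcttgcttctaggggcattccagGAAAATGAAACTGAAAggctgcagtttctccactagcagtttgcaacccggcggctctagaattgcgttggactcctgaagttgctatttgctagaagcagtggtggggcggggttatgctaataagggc
Oas3, chr5:120777660-120777909, strand minus: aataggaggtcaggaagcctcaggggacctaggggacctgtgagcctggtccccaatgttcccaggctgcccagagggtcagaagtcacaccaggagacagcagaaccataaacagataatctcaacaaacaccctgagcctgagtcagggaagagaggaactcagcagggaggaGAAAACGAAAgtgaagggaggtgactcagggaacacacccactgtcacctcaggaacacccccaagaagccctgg
Isg15, chr4:156200819-156201068, strand minus: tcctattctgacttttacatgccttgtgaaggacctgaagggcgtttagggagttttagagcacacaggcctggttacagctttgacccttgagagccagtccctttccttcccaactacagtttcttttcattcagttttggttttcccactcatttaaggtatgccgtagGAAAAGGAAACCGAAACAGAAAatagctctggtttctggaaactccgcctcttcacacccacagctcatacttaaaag
Ifit1, chr19:34640639-34640888, strand +: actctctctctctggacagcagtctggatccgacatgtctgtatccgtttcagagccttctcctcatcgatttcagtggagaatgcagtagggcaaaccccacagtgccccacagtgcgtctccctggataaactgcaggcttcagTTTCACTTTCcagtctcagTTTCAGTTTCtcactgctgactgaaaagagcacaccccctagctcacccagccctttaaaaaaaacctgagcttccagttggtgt
In B2m, which encodes the light chain of MHC class I, 1 core starts 139 bases before the gene's start. Bst2, the gene of the membrane protein tetherin, holds 2 overlapping cores at 130 and 124 bases, and Isg15, a ubiquitin-like modifier, holds 3 overlapping ones. The shorter GAS motif TTCNNNGAA was found before 8 of the 39 members (20.5%), against 8.13% of all genes: Irf1 and Isg20 rose, Bst2, Ifit2 and Samhd1 fell, Eif2ak2 and Oas1a did not pass the test, and Psmb8 was not tested. These are matches of letters in a reference genome, and no binding was measured.

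The libraries held 35418985 to 45983910 gene counts. Levels are given as CPM, the count scaled by the TMM-adjusted library size, and 3 counts, used as the floor for a count of 0, equal 0.0630 to 0.0875 CPM. The construct row VP16 had 27 counts at 24 h and 15 at 0 h in the Vp16-TRF1ΔN line, against 1 and 0 in the TRF1ΔN line. The row TRF1DN was far lower in the Vp16-TRF1ΔN line, with 159 and 123 counts in the Vp16-TRF1ΔN line, against 7798 and 1863 in the TRF1ΔN line. The sources used here do not give the sequences behind the construct rows, so these counts do not measure how much of each protein's RNA a line held. Mitochondrially encoded genes took 15.7% of the counts at 24 h, against 11.4% at 0 h, in the Vp16-TRF1ΔN line, and 13.3%, against 10.2%, in the TRF1ΔN line. Of 8 epithelial markers 7 had a row, and their summed level was 6208 CPM at 24 h and 6096 CPM at 0 h in the Vp16-TRF1ΔN line and 6222 and 6386 CPM in the TRF1ΔN line. With TGFβ Krt8 (log2 change 0.30) and Krt18 (0.56) rose, Cdh1 (-1.46) and Krt19 (-3.42) fell, and Cldn4 rose, with 152 counts against 1 and 563 against 1. Krt7 (-0.75) and Epcam (-0.30, at most 18 counts) did not pass edgeR's test, and the part of these changes in the results was not tested. Of 12 leukocyte markers 6 had a row, with a summed level of 3.85 CPM at 24 h and 3.69 CPM at 0 h in the Vp16-TRF1ΔN line and 5.46 and 3.72 CPM in the TRF1ΔN line. The defining leukocyte gene Ptprc had 1, 6, 1 and 7 counts in these libraries, in that order. Cd68 made up most of each sum, at 3.21, 3.09, 2.92 and 3.15 CPM. It did not pass the TGFβ test (-0.03, adjusted p = 0.911, edgeR). Lyz2 had 0, 9, 0 and 10 counts, Itgam 0, 8, 4 and 9, and Itgax at most 1. Csf1r, the receptor of macrophage colony-stimulating factor, had 21 counts at 24 h against 2 at 0 h, and 101 against 1. The part of other cells in the results was not tested.

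The genes covered a wide range before any comparison. A mean of at least 1 CPM was reached by 29 of the 46, and 21 were above 10 CPM. B2m was highest per length, at 314 CPM per kb of exon averaged over the libraries, followed by Lgals3bp at 57.6, the noncoding RNA AW112010 at 20.1, Eif2ak2 at 18.3 and Irf1 at 17.6. Eif2ak2 encodes the kinase PKR, which is activated by double-stranded RNA. Many of the genes that respond most to interferon were near silent: 9 genes had too few counts to be tested, with at most 28 in any library. They were Isg15, Rsad2 (viperin), Usp18 (the protease that removes ISG15), Cmpk2, Ifi44, Ifit3, Oas2 and the immunoproteasome subunits Psmb8 and Psmb9. Rsad2 had 0 counts in both Vp16-TRF1ΔN libraries and 1 count in each TRF1ΔN library. Isg15 had 9 counts at 24 h and 5 at 0 h in the Vp16-TRF1ΔN line, and 4 and 11 in the TRF1ΔN line, which shows no common direction. Of 11 interferon genes listed 2 had a row, Ifne and Ifng, each with at most 3 counts in any library.

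**Figure D1:**
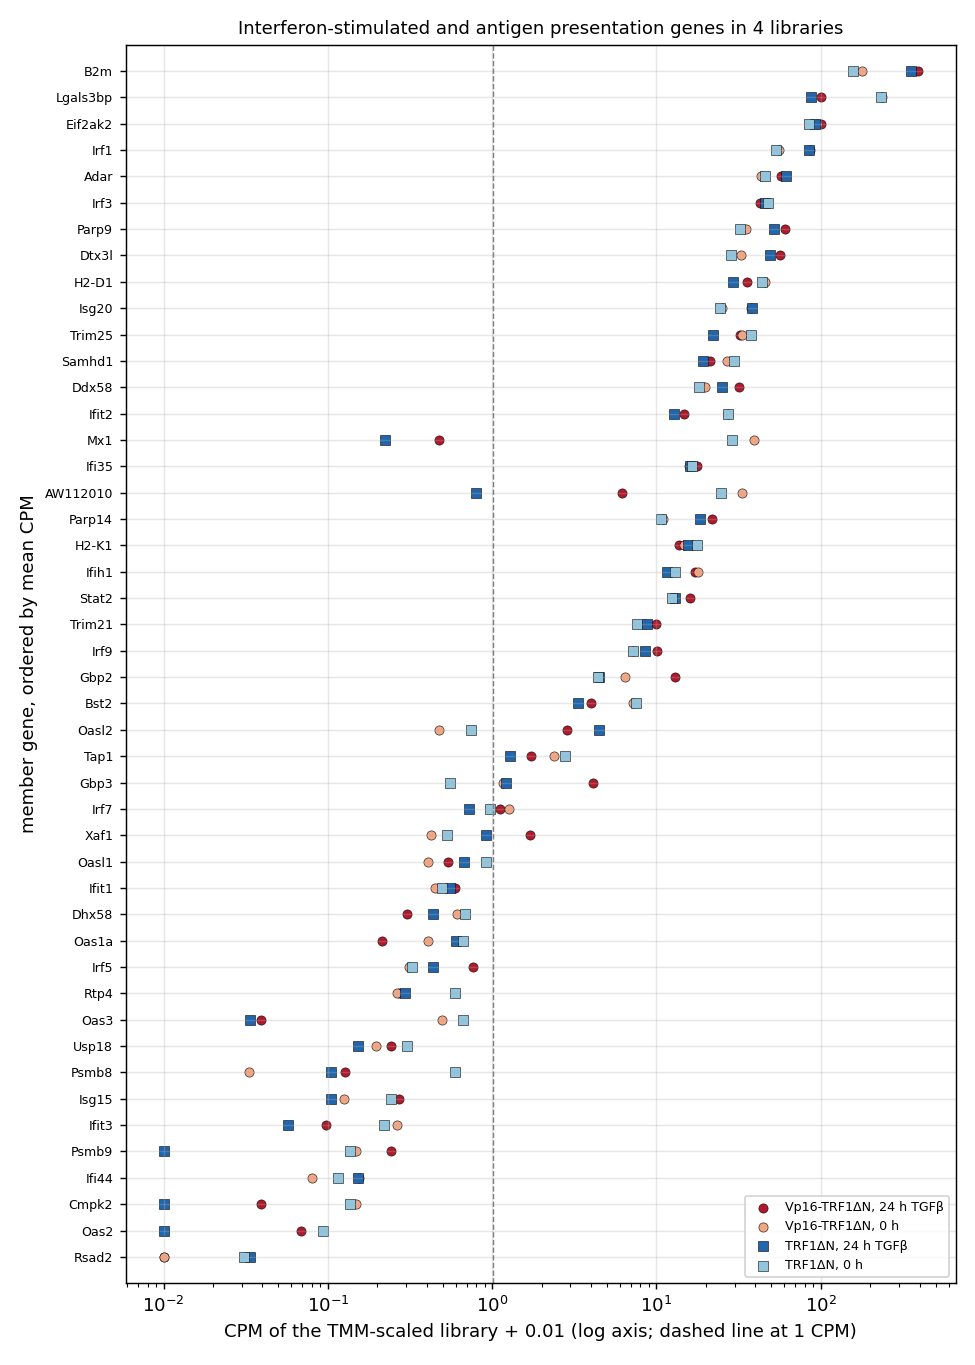
Levels of the 46 genes in each library, in CPM of the TMM-scaled library plus 0.01 on a log axis, 1 point per library, ordered by mean CPM. Circles are the Vp16-TRF1ΔN line and squares the TRF1ΔN line, dark at 24 h and light at 0 h. Mx1 and AW112010 have their 0 h points far right of their 24 h points, and 17 genes lie below a mean of 1 CPM.

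Neighbouring family members differed in level. On chromosome 19, Ifit2 (chr19:34550694-34576419) had 503 to 1301 counts in a library. Ifit3, whose start lies 32837 bp further, had at most 11, and Ifit1, another 57340 bp along, had 19 to 23. These genes encode RNA-binding proteins that block viral translation. Parp9 and Dtx3l, which encode partner proteins of one ADP-ribosylation and ubiquitin ligase complex and start 681 bp apart on opposite strands of chromosome 16, were alike, with means of 44.9 and 41.6 CPM, or 9.22 and 7.26 CPM per kb. Tap1, a subunit of the peptide transporter, and Psmb9 start 211 bp apart on chromosome 17, and Tap1 had 54 to 131 counts where Psmb9 had 0 to 8. Exons of Parp9 and Dtx3l overlap each other, as do those of Tap1 and Psmb9, and with no strand setting given reads from the overlaps cannot be assigned.

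The average TGFβ response over both lines was tested in an additive edgeR quasi-likelihood fit that leaves 1 residual degree of freedom. Of the 46 genes 37 had enough counts to be tested, and 11 rose, 8 fell and 18 did not pass an adjusted p of 0.05. That is 29.7% up and 21.6% down, where 23.2% of all 14257 genes tested rose and 25.3% fell, so the share called was near that of all genes. The median change of the 37 was 0.06 on the log2 scale, against -0.0073 over all genes tested. Each of the 19 genes called had ratios of the same sign in both lines. The fit takes its spread from disagreement between the lines, so such agreement among called genes largely follows from the test. Adjusted p of the 19 lay between 0.000883 and 0.0449 (edgeR quasi-likelihood test), and DESeq2's Wald test called 10 up and 8 down. At an unadjusted p under 0.05, 21 of the 37 passed (56.7% of all genes tested). Of the 37 genes tested, 4 were called as rising and 5 as falling by at least 2-fold. Among all 14257 genes tested 19% were called with such a change. In these bulk libraries fewer cells expressing a gene and less RNA per cell cannot be told apart. The labels do not say that libraries came from separate cultures, so p-values speak only of the spread between these 4. That spread is the departure from additivity, moderated across genes. It mixes any difference in response between the lines with variation that may be technical. A gene whose lines responded differently gets a larger p for that reason.

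Mx1, AW112010 and Oas3 fell by more than the other genes called. Mx1 (chr16:97447035-97462907) is the interferon-induced GTPase that restricts influenza viruses in mice, and RefSeq classes it as a transcribed pseudogene in the C57BL/6J reference. The GENCODE M21 annotation used here types Mx1 as protein-coding. It had 0.467 CPM at 24 h, against 39.3 CPM at 0 h, in the Vp16-TRF1ΔN line, and 0.214 CPM, against 29.0 CPM, in the TRF1ΔN line. Both 24 h libraries thus had 16 or fewer counts of a gene that had 1695 and 1382 counts at 0 h. The decrease was 84.2-fold in the Vp16-TRF1ΔN line (95% counting interval 51.7 to 148) and 136-fold in the TRF1ΔN line (71.3 to 297), and the average log2 change was -6.67 ± 0.18 (SE, adjusted p = 0.000883, edgeR). Mx1 was therefore well expressed at 0 h in cells where Isg15, Rsad2 and Ifit3 had 11 or fewer counts in every library.

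AW112010 (chr19:11047612-11055808) is annotated as a lincRNA and is induced by interferon and bacterial products in mouse macrophages. It had 6.16 CPM at 24 h, against 33.1 CPM at 0 h, in the Vp16-TRF1ΔN line, and 0.784 CPM, against 24.8 CPM, in the TRF1ΔN line. The 24 h libraries lay below both 0 h libraries but far from each other. The decrease was 5.37-fold in the Vp16-TRF1ΔN line (4.64 to 6.23) and 31.6-fold in the TRF1ΔN line (22.4 to 46.1), and the average log2 change was -3.35 ± 0.57 (SE, adjusted p = 0.0113, edgeR).

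The other genes that fell included those of a secreted and a membrane protein and members of the Oas and Ifit families. Lgals3bp (chr11:118392751-118402092), a secreted glycoprotein that binds galectin 3, had 100.7 CPM at 24 h, against 235 CPM at 0 h, in the Vp16-TRF1ΔN line, and 87.3 CPM, against 232 CPM, in the TRF1ΔN line, a log2 change of -1.32 ± 0.08 (adjusted p = 0.00124, edgeR). Bst2, which tethers virus particles to the cell surface, had 3.97 CPM, against 7.17 CPM, and 3.33 CPM, against 7.45 CPM, a change of -1.009 ± 0.16 (adjusted p = 0.00935, edgeR). In both genes the 2 libraries of each time lay close together and the times did not overlap. Oas3, one of the enzymes that make 2′-5′ oligoadenylate, had 1 count at 24 h against 21 at 0 h, and 1 against 31. At 24 h it was lower by 16.7-fold in the Vp16-TRF1ΔN line (2.69 to 690.5) and by 27.4-fold in the TRF1ΔN line (4.57 to 1116), with an adjusted p of 0.00577 (edgeR). Ifit2 fell by 0.996 on the log2 scale, and Samhd1, which hydrolyses dNTPs and so limits reverse transcription, fell by 0.49.

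The genes that rose were led by a member of the same Oas family. Oasl2 (chr5:114896936-114912234), an OAS-like protein, had 2.83 CPM at 24 h, against 0.464 CPM at 0 h, in the Vp16-TRF1ΔN line, and 4.47 CPM, against 0.735 CPM, in the TRF1ΔN line. Its ratio was 6.10-fold (3.74 to 10.4) and 6.08-fold (4.22 to 8.99), nearly the same in both lines, and the log2 change was 2.60 ± 0.22 (adjusted p = 0.00239, edgeR). Its neighbour Oasl1, which starts 26304 bp away, did not pass (log2 change -0.10, adjusted p = 0.835, edgeR), with 18 counts against 17 and 28 against 43. Oas1a did not pass either (-0.41, adjusted p = 0.413, edgeR), so tested members of this family rose, fell or missed the threshold.

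Gbp3 (chr3:142560026-142573209), a guanylate-binding GTPase of antimicrobial defence, had 4.11 CPM at 24 h, against 1.16 CPM at 0 h, in the Vp16-TRF1ΔN line, and 1.21 CPM, against 0.546 CPM, in the TRF1ΔN line. The log2 change was 1.55 ± 0.27 (adjusted p = 0.0125, edgeR). With no term for the line this call was lost (adjusted p = 0.122, over a range of 0.000941 to 0.122 in 5 alternatives). Xaf1, a proapoptotic zinc finger protein, had 1.69 CPM, against 0.418 CPM, and 0.903 CPM, against 0.525 CPM, a change of 1.39 ± 0.40 (adjusted p = 0.0449, edgeR). DESeq2's Wald test did not call it (adjusted p = 0.195, over a range of 0.0120 to 0.195 in 5 alternatives).

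A further set of enzymes and regulators rose by less than 2-fold. The ADP-ribosyltransferase genes Parp14 and Parp9 rose by 0.89 ± 0.10 and 0.73 ± 0.07 on the log2 scale, and Dtx3l by 0.78 ± 0.07. Irf1, the transcription factor of the interferon gamma response, rose by 0.65 ± 0.06, with 86.3 CPM at 24 h against 55.4 CPM at 0 h in the Vp16-TRF1ΔN line and 84.5 CPM against 53.2 CPM in the TRF1ΔN line. The exonuclease gene Isg20 rose by 0.62 ± 0.07, Ddx58, which encodes the RNA sensor RIG-I, by 0.57 ± 0.09, and Adar, the editor of double-stranded RNA, by 0.41 ± 0.07. Adjusted p of these 7 genes was at most 0.00984 in edgeR's quasi-likelihood test.

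**Figure D2:**
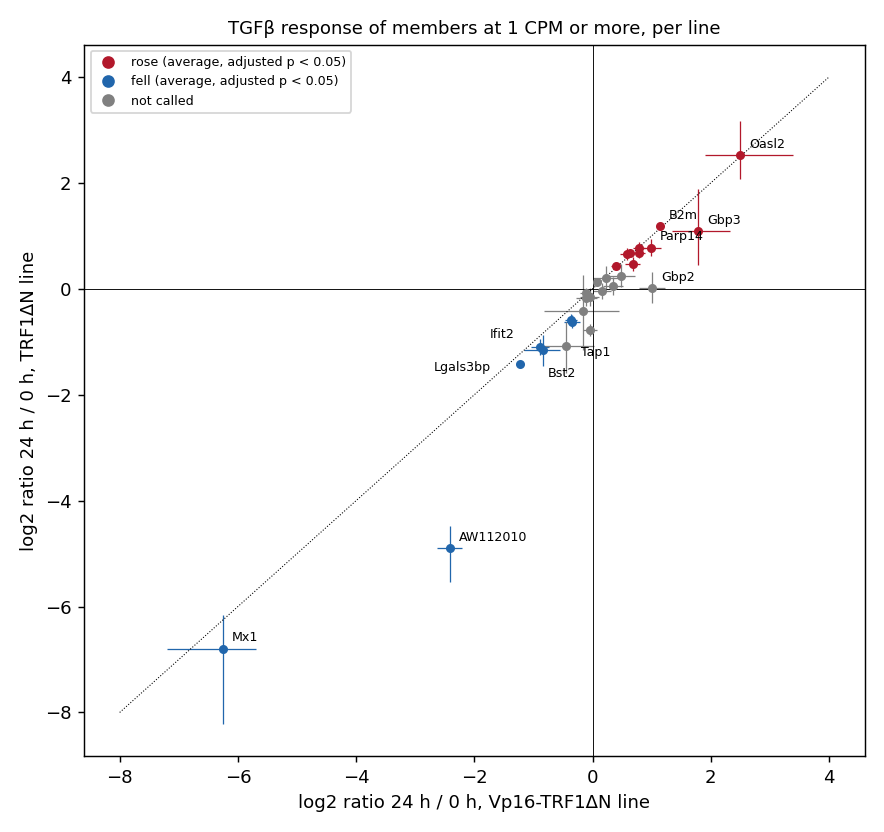
TGFβ response (log2 ratio of 24 h to 0 h, prior count of 2) of the 29 genes whose mean reached 1 CPM, for the Vp16-TRF1ΔN line (horizontal) and the TRF1ΔN line (vertical), with 95% counting intervals. Red genes rose and blue genes fell in the average over lines, and the dotted line marks equal responses. AW112010 lies furthest from the dotted line, at -2.42 and -4.90.

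Set out line by line, the responses have no test, since there was 1 library per group. They are counted here at a ratio of 2-fold or more with a 95% counting interval that excludes 1, among the 29 genes whose mean reached 1 CPM. In the Vp16-TRF1ΔN line 4 genes were counted as higher at 24 h (Oasl2, Gbp3, B2m and Gbp2) and 3 as lower (Mx1, AW112010 and Lgals3bp), where 6.92% and 9.09% of 11777 genes were. In the TRF1ΔN line 3 were higher (Oasl2, B2m and Gbp3) and 6 lower (Mx1, AW112010, Lgals3bp, Bst2, Ifit2 and Tap1), where 8.4% and 10.9% of all genes were. Gbp2 passed this rule in the Vp16-TRF1ΔN line alone, and Bst2, Ifit2 and Tap1 in the TRF1ΔN line alone. The share of all genes that passed in 1 line alone was not counted. Bst2 was 1.81-fold lower at 24 h in the Vp16-TRF1ΔN line (1.47 to 2.23) and 2.24-fold lower in the TRF1ΔN line (1.84 to 2.74), so those intervals overlap. The median ratio of the 29 genes on the log2 scale was 0.16 in the Vp16-TRF1ΔN line and 0.02 in the TRF1ΔN line.

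The factors that carry the interferon signal to the ISRE did not pass the test. Stat2 had 16.1 CPM at 24 h, against 12.6 CPM at 0 h, in the Vp16-TRF1ΔN line, and 12.9 CPM, against 12.4 CPM, in the TRF1ΔN line (0.20 ± 0.12, adjusted p = 0.211, edgeR). Irf9 had 10.1 CPM, against 7.22 CPM, and 8.55 CPM, against 7.18 CPM (0.37 ± 0.13, adjusted p = 0.0774). For both genes the 24 h value was the higher in each line. Irf3, which is activated by nucleic acid sensors, had 42.7 CPM, against 46.3 CPM, and 45.6 CPM, against 47.9 CPM (-0.09 ± 0.07, adjusted p = 0.320). Irf7, which amplifies the interferon response, had 1.11 CPM, against 1.25 CPM, and 0.713 CPM, against 0.966 CPM (-0.30 ± 0.26, adjusted p = 0.382). These adjusted p are from edgeR's quasi-likelihood test. Exons of Irf3, Irf7 and Irf9 overlap those of Bcl2l12, Phrf1 and Rnf31, so some of their reads may belong to those genes or have been dropped.

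Within the sensors, Ifih1, which encodes the double-stranded RNA sensor MDA5, did not pass (-0.10, adjusted p = 0.407), nor did its regulator Dhx58 (-0.82, adjusted p = 0.108), with at most 32 counts. Eif2ak2 stood at 0.10 (adjusted p = 0.238), and the ubiquitin ligase genes Trim25 and Trim21 at -0.41 (adjusted p = 0.143) and 0.22 (adjusted p = 0.184), all in edgeR's quasi-likelihood test. Gbp2 did not pass in the average over lines (0.54 ± 0.27, adjusted p = 0.165, edgeR). Another 4 genes did not pass either: Ifi35 (0.06, adjusted p = 0.645), the transcription factor gene Irf5 (0.90, adjusted p = 0.127), the chaperone gene Rtp4 (-0.61, adjusted p = 0.308) and Ifit1 (0.28, adjusted p = 0.495), by the same edgeR test. Irf5, Rtp4 and Ifit1 had at most 28 counts in any library. Exons of Irf5 overlap those of Tnpo3 on the opposite strand, which had a mean of 202 CPM. Some reads counted for Irf5 may therefore belong to Tnpo3, or reads of Irf5 may have been dropped. Trim25 differed between lines in its response, at -0.05 in the Vp16-TRF1ΔN line and -0.77 in the TRF1ΔN line, a difference with no test.

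MHC class I genes did not move as 1 group. B2m (chr2:122147686-122153083) had 390 CPM at 24 h, against 177 CPM at 0 h, in the Vp16-TRF1ΔN line, and 355 CPM, against 157 CPM, in the TRF1ΔN line. At 24 h it was higher by 2.20-fold in the Vp16-TRF1ΔN line (2.14 to 2.26) and by 2.26-fold in the TRF1ΔN line (2.20 to 2.33), with a log2 change of 1.16 ± 0.06 (adjusted p = 0.00115, edgeR). The heavy chain gene H2-D1 (chr17:35262730-35267499) fell, with 35.8 CPM, against 46.03 CPM, and 29.4 CPM, against 44.1 CPM (-0.47 ± 0.09, adjusted p = 0.0139, edgeR). The other heavy chain gene, H2-K1, did not pass, with 13.7 CPM, against 14.7 CPM, and 15.7 CPM, against 17.7 CPM (-0.14 ± 0.09, adjusted p = 0.257, edgeR). Tap1 had 1.72 CPM, against 2.37 CPM, and 1.283 CPM, against 2.75 CPM, lower at 24 h in both lines but not called (-0.78 ± 0.25, adjusted p = 0.0637, edgeR). With no low count filter it was called (adjusted p = 0.0264, over a range of 0.0264 to 0.290 in 5 alternatives). Psmb8 had 4 counts at 24 h against 1 at 0 h in the Vp16-TRF1ΔN line, and 4 against 28 in the TRF1ΔN line, and Psmb9 had 8 against 6 and 0 against 6. Class I genes are polymorphic and have near-identical copies, so counts against the reference strain's alleles are uncertain for H2-K1 and H2-D1. Reads of the Oas, Ifit and Gbp genes may likewise be split among close copies.

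The lines were then compared, to ask whether the interferon genes differed in cells with the Vp16 fusion. Averaged over both times no gene of the 37 passed edgeR's quasi-likelihood test, with adjusted p of 0.398 to 0.998. None of all 14257 genes did (0%), and 1773 had an unadjusted p under 0.05, 7 of them among the 37. DESeq2's Wald test called 47 genes in all and none of the 37. The median line difference of the 37 was 0.13 on the log2 scale, against -0.0074 over all genes tested. Differences at single times are described without a test and counted by the same rule as the responses within a line.

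At 24 h, 3 of 29 genes were counted as higher in the Vp16-TRF1ΔN line and 0 as lower, where 2.11% of 11777 genes lay higher and 1.18% lower by this rule. AW112010 was 7.85-fold higher (5.42 to 11.7), with 211 counts against 33. Gbp3 was 3.40-fold higher (2.45 to 4.78), with 141 counts against 51. Gbp2, of the same family of GTPases, was 2.92-fold higher (2.45 to 3.48), with 13.0 CPM against 4.44 CPM. At 0 h, 1 of 29 was counted as higher and 0 as lower, where 0.178% and 0.416% of all genes were. This was Gbp3, 2.13-fold higher (1.30 to 3.56), with 50 counts against 26. Gbp2 was 1.46-fold higher at 0 h (1.22 to 1.76), with 6.43 CPM against 4.39 CPM, and AW112010 1.33-fold higher (1.23 to 1.44), so the counting intervals of all 3 genes lay above 1 at both times.

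Responses to TGFβ were then set against each other between the lines. In this difference 1 of 29 genes was counted, AW112010, at 2.48 on the log2 scale (95% counting interval 1.94 to 3.02), where 1.68% of all genes passed upward and 0.866% downward. Gbp2 was just under 2-fold, at 0.99 (0.63 to 1.35), with a TGFβ ratio of 2.02-fold (1.73 to 2.35) in the Vp16-TRF1ΔN line and 1.013-fold (0.827 to 1.24) in the TRF1ΔN line. Xaf1, at a mean of 0.884 CPM, was not counted for its level but differed by 1.17 (0.12 to 2.23). The line ratio at 24 h was above 1 for 24 of 29 genes (82.8%), against 49.0% of all 11777, and at 0 h for 19 of 29 (65.5%), against 47.9%. Most of these ratios were small, with a median of 0.23 at 24 h and 0.04 at 0 h on the log2 scale. Lists of related genes, described below, leaned the same way at 24 h at the same minimum mean. The share above 1 was 72.7% of other interferon-stimulated genes and 68.8% of receptor and JAK-STAT genes. It was 64.7% of nucleic acid sensing genes and 60.9% of other MHC class I pathway genes. The response in the Vp16-TRF1ΔN line exceeded that in the TRF1ΔN line for 22 of 29 (75.9%), against 50.6% of all 11777, and this count uses the same 24 h libraries as the ratio at 24 h. Not all genes had that direction: Oasl2 was 1.58-fold lower in the Vp16-TRF1ΔN line at 24 h (1.23 to 2.04) and H2-K1 1.15-fold lower (1.02 to 1.29). Among the RNA sensors, Ifih1 was 0.56 higher at 24 h and 0.46 higher at 0 h on the log2 scale, and Ddx58 0.35 and 0.13. Mx1, at 16 counts against 9 at 24 h, had a ratio of 2.18-fold whose interval (0.909 to 5.61) included 1, and was 1.36-fold higher at 0 h (1.26 to 1.46).

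**Figure D3:**
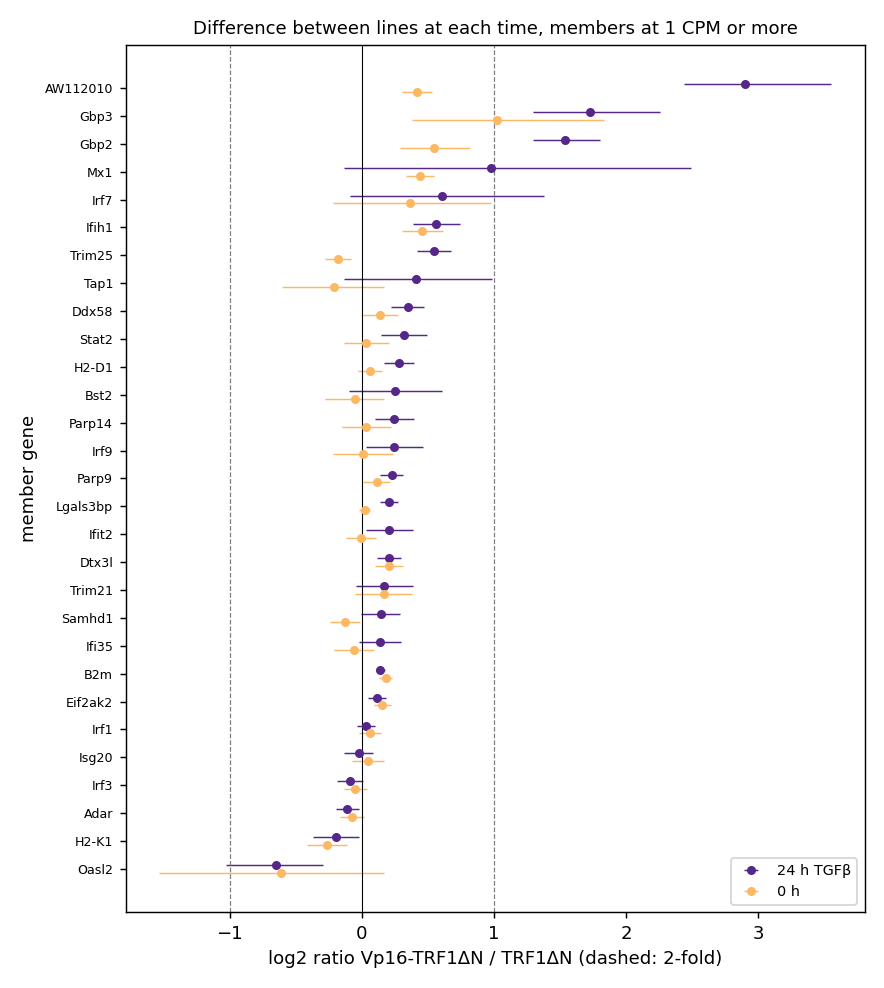
Difference between lines (log2 ratio of Vp16-TRF1ΔN to TRF1ΔN) at 24 h and at 0 h for the 29 genes whose mean reached 1 CPM, with 95% counting intervals and 2-fold marked by dashed lines. AW112010, Gbp3 and Gbp2 lie above 2-fold at 24 h, and most other genes lie within 1 unit of 0.

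Other genes of the pathway were counted from lists that hold none of the 46. Of 16 genes of interferon receptors and JAK-STAT signalling 8 rose with TGFβ, 5 fell and 3 did not pass, with a median of 0.20, against -0.0073 over all genes tested. The shares were 50% up and 31.2% down, where 23.2% of all genes tested rose and 25.3% fell. Stat3 (0.86 ± 0.08) and the kinase gene Jak2 (0.76 ± 0.09) rose most, with Ifnar1 at 0.62 ± 0.06, and Jak1 (0.46), Ifnar2 (0.31) and Tyk2 (0.26) also rose. The phosphatase gene Ptpn6 (-2.44 ± 0.25), the interferon gamma receptor chain Ifngr2 (-1.45 ± 0.12) and Socs3 (-0.92 ± 0.07), a feedback inhibitor of cytokine receptors, fell most. Of the 16, 5 were called up by DESeq2's Wald test, and likewise with mitochondrial genes left out, while 3 were called down with no term for the line. Both chains of the type I receptor thus rose in edgeR's fit, Ifnar2 close to the threshold (adjusted p = 0.0458, edgeR). Ifngr2 of the type II receptor fell, and its partner Ifngr1 did not pass (-0.34, adjusted p = 0.0788, edgeR). Ifngr1 is named here after its values were seen.

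Of 18 nucleic acid sensing genes tested 11 fell, 1 rose and 6 did not pass, which is 61.1% down and 5.56% up, where 25.3% of all genes tested fell and 23.2% rose. Their median was -0.42, and DESeq2's Wald test called 7 down. The DNA sensor gene Aim2 was among those that fell (-1.98 ± 0.26). Traf3, an adaptor of sensor signalling, rose by 0.41 ± 0.10 and was not called with no term for the line. Tmem173, the gene of STING, did not pass for TGFβ (-0.15, adjusted p = 0.664, edgeR). It had 31 counts at 24 h and 58 at 0 h in the Vp16-TRF1ΔN line, against 156 and 163 in the TRF1ΔN line, and is named here after its values were seen. Its average line difference was -1.66 ± 0.26 (adjusted p = 0.398, edgeR).

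Of 42 further interferon-stimulated genes tested 14 rose, 11 fell and 17 did not pass, with a median of 0.07. The shares of 33.3% up and 26.2% down stand beside 23.2% and 25.3% of all genes tested. Apol9a (2.88 ± 0.30), the GTPase gene Ifi47 (2.87 ± 0.28) and Apol9b (2.76 ± 0.25) rose most. Gbp4 (-2.85 ± 0.59) and Oas1c (-3.20 ± 0.41) were among those that fell most, as was Ifit1bl1, with 0 counts against 29 and 1 against 42. Apol9a and Apol9b are close copies, so reads may have been split between them. In the list of other MHC class I pathway genes 7 of 24 rose, 2 fell and 15 did not pass, with a median of 0.04. That is 29.2% up and 8.33% down, beside the same 23.2% and 25.3% of all genes. Cd1d1 (1.78 ± 0.15), which presents lipids, H2-T24 (1.52 ± 0.43) and the peptide-trimming protease gene Erap1 (0.65 ± 0.06) rose most. H2-T24 had only 13 counts against 7 and 19 against 6, with an adjusted p of 0.0451 (edgeR). Tap2 (-0.96 ± 0.22) and H2-Q4 (-0.76 ± 0.14) fell. DESeq2's Wald test called 1 of these down. Of the MHC class II genes 1 was tested, H2-DMa, which rose by 1.62 ± 0.31, with 74 counts against 39 and 68 against 18. Adjusted p of the genes named as called in these lists was at most 0.0478 in edgeR's quasi-likelihood test.

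**Figure D4:**
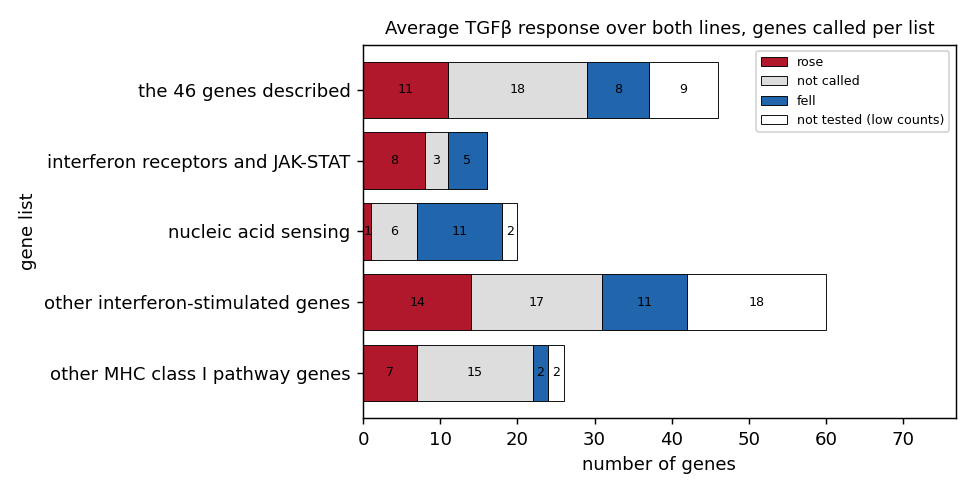
Number of genes that rose, were not called, fell or were not tested in the average TGFβ response (edgeR adjusted p of 0.05), for the 46 genes described and 4 further lists. The 46 genes split into 11 that rose, 18 not called, 8 that fell and 9 not tested, and nucleic acid sensing shows 11 that fell and 1 that rose.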

How the data were processed

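Total RNA was depleted of ribosomal RNA. Per the submitters' processing notes, the tools named were FastQC, STAR, HTSeq and DESeq2 with build mm10, without versions. Annotation release: not given in the sources used here. No source used here states the strand setting. Raw counts per gene were deposited and gave every result. The authors also deposited log2 normalized values, which equal log2 of the count divided by DESeq2's size factor, plus 1, within 1e-06 in all 21975 rows.

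Construct rows, 0.0129% to 0.0582% of the counts, entered neither library sizes nor tests. Symbols, positions and exon lengths came from GENCODE M21 (GRCm38, the same build as mm10) and matched 21889 genes. Libraries were scaled with TMM in edgeR 4.0.16 (R 4.3.3). An additive model (line and time) was fitted with the quasi-likelihood method to the 14257 genes passing filterByExpr, with two-sided tests and Benjamini-Hochberg adjustment over all of them. Each SE was taken as the absolute log2 change over the root of F and borrows from the spread across genes. Ratios within a line or time have no test. They use a prior count of 2 on the log2 scale, none as folds, and exact 95% counting intervals (Poisson variances for the difference of responses). Intervals and floors cover counting error only. The fit was tested on simulated data.

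Alternatives were DESeq2 size factors, DESeq2 1.42.0's Wald test, no low count filter, mitochondrial genes left out, no term for the line, other fold and level thresholds and a prior count of 0.5. Genes are named with values for each library when called and at least 2-fold changed, when counted between lines, or when in a fixed set of MHC and IRF genes. From other lists, up to 3 called genes in each direction are named, plus Ifnar1, Ifnar2, Jak1 and Tyk2 whatever their values, and some of these are not reported here. The members and lists were chosen with earlier results of these data known.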

Additional observations from a re-analysis of the deposited data

How the results depend on the processing

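No library could be left out, since each group held 1. No paired analysis was possible because the labels give no replicate numbers, and the line is already a term of the fit. Over the 5 alternatives 10 to 11 of the 46 genes were called up with TGFβ and 8 to 9 down. With no low count filter 1 gene, Gbp3, was called higher in the Vp16-TRF1ΔN line (log2 1.49, adjusted p = 0.0455, edgeR, over a range of 0.0455 to 0.544 in 4 alternatives), and 1 sensing gene was called lower. The uncalled line differences of Isg20 and Samhd1 changed sign: Isg20 to -0.0032 with mitochondrial genes left out, and Samhd1 to -0.0037 with DESeq2 size factors, -0.011 with mitochondrial genes left out and -0.0016 in DESeq2's Wald test. Of receptor and JAK-STAT genes 5 were called up with mitochondrial genes left out and 5 by DESeq2, and 3 down with no line term, which also left 0 sensing genes called up. DESeq2 called 7 sensing genes and 1 MHC class I gene down. At a fold threshold of 1.5, TGFβ ratios counted 9 higher and 5 lower in the Vp16-TRF1ΔN line and 8 higher in the TRF1ΔN line, the line ratio at 24 h counted 1 lower, and the difference of responses counted 3 higher. The last count was also 3 with mitochondrial genes left out, and 2 with no minimum CPM. With no minimum CPM, 10 were counted lower with TGFβ in the TRF1ΔN line, and 1 and 3 lower in the Vp16-TRF1ΔN line at 24 h and 0 h. The cause was not tested. The other 148 of 166 recomputed counts stayed within 1.5 times, among them those under DESeq2 size factors and a prior count of 0.5. Over all genes the line test called 0 with DESeq2 size factors, 4 with mitochondrial genes left out, 109 with no low count filter and 47 with DESeq2's Wald test. Genes with under 50 counts, such as Oas3 and Psmb8, are limited by depth.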
